A study of Homo sapiens with 21 samples.

Results

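The libraries described here came from the 7 tumors of mice given Oxy186, an oxysterol derivative, and were divided into samples r1-r4 (4 tumors) and samples r5-r7 (3 tumors). The study made this division on a principal component plot of the same libraries, where r1-r4 lay apart from the control group and r5-r7 did not. They are 7 of the 21 tumors sequenced. The other tumors, 7 from the control group and 7 from mice given Oxy210, a related oxysterol derivative, serve as the background. All tumors were grown from A549-Luc2 cells, a luciferase-carrying form of the A549 human lung adenocarcinoma line, injected in the hind flank of female athymic nu/nu mice 6 to 8 weeks old. Mice were randomized at 10 per group and received Oxy186 or Oxy210 at 50 mg/kg by daily oral gavage, while control mice received the formulation solution. Every group therefore carries the same single cell line and lacks host T cells. Only reads assigned to the human genome were counted, so reads assigned to the mouse genome are not part of the values.

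Because the division was read from the expression of these libraries, every difference between r1-r4 and r5-r7 in this text is a description and carries no p-value. The first principal component of the 21 libraries held 33.5% of the variance. Among the Oxy186 tumors, the lowest score of r1-r4 there was 35.5, in r2, and the highest of r5-r7 was -17.6, in r5. Other tumors lay between these scores, as control tumors ranged from -50.6 to 16.0 and Oxy210 tumors from -29.3 to 30.3. Levels are log2 CPM, the log2 of the counts of a gene scaled to the total of its library, a scale on which a difference of 1 is a 2-fold change. A gene was counted as separating the subgroups when none of the values of r1-r4 overlapped those of r5-r7 and the mean log2 CPM differed by over 1.

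Genes differ widely in the share of G and C bases in their exons, and RNA-seq libraries differ in how well GC-rich fragments are recovered, so that a library can read high or low over whole classes of genes that share no function. A tumor also has its own state. Its proliferation, oxygen supply, interferon tone and the RNA output of its mitochondria vary between animals bearing the same cells. The GC trend of a library is summarized here by its GC slope, the change in log2 CPM, relative to the mean of the 21 libraries, for every 10 percentage points of exon GC content.

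The range of base composition that these genes cover is shown by the starts of the longest coding exons of 4 of them, read from GRCh38 with GENCODE 44 gene models, 5′ to 3′ on the strand of the gene, with G and C in capitals. TMEM238 (chr19:55384140-55384259, minus strand), which encodes a transmembrane protein, had the highest exon GC content of the genes named here, and LUM (chr12:91108860-91108979, minus strand), which encodes the matrix proteoglycan lumican, had the lowest. KCNF1 (chr2:10912427-10912546, plus strand), a potassium channel subunit, and FTH1 (chr11:61964772-61964891, minus strand), the heavy chain of the iron store ferritin, are shown because KCNF1 is GC-rich and FTH1 is not, and both separated the subgroups after the GC trend was removed.
TMEM238: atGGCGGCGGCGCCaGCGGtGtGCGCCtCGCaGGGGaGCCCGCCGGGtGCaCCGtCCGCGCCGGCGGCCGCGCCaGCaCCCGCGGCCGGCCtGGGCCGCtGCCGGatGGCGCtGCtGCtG
KCNF1: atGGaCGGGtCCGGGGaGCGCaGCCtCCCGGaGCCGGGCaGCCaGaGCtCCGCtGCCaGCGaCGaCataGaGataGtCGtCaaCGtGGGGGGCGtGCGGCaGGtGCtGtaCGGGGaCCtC
FTH1: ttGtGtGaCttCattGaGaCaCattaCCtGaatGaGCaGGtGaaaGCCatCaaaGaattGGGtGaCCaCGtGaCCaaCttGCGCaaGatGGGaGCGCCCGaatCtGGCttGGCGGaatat
LUM: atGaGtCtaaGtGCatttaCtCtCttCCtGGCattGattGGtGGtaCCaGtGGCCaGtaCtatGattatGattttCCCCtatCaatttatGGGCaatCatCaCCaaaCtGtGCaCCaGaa
The GC content of these stretches was 83.3% for TMEM238, 70.0% for KCNF1, 49.2% for FTH1 and 41.7% for LUM. Over all exons it was 76.0%, 66.97%, 49.5% and 34.9%.

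The Oxy186 tumors lay at both ends of the range of GC slopes. The slope was -0.30 in r1, -0.18 in r2, -0.51 in r3 and -0.47 in r4. It was 0.079 in r5, 0.49 in r6 and 0.18 in r7. The subgroups did not overlap, and r6 had the steepest positive slope while r3 had the steepest negative slope of the 21 libraries. The mean of r1-r4 was -0.37 ± 0.15 (SD, n = 4). That of r5-r7 was 0.25 ± 0.21 (SD, n = 3). The SD over all 7 Oxy186 tumors was 0.37, against 0.18 in the control group and 0.20 in the Oxy210 group.

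**Figure D1:**
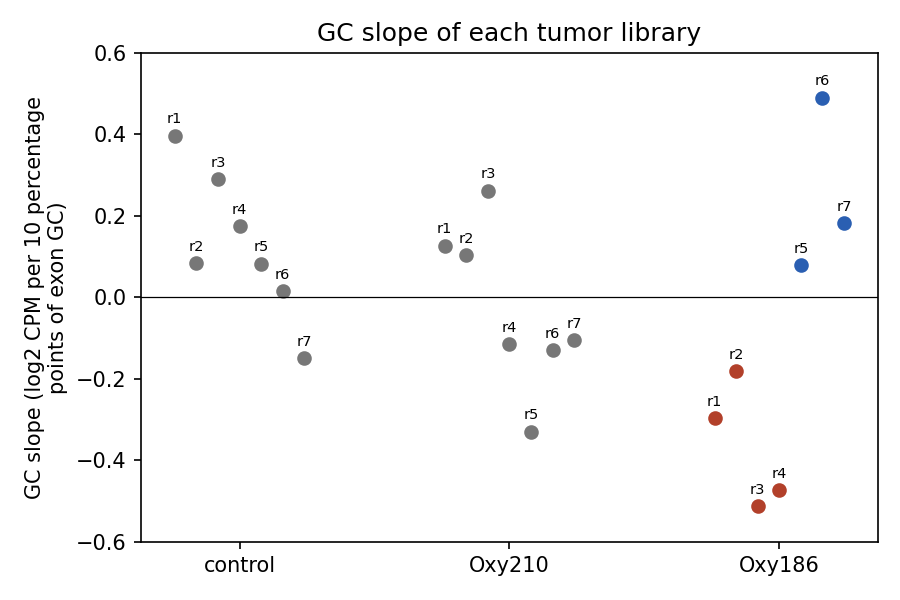
GC slope of each of the 21 libraries by group, in log2 CPM per 10 percentage points of exon GC content, with each point 1 tumor labelled by its replicate number. Oxy186 tumors r1-r4 (red) lie between -0.51 and -0.18 and r5-r7 (blue) between 0.079 and 0.49, and control and Oxy210 tumors (grey) lie between -0.33 and 0.40.

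Without any correction, the subgroups differed mainly in GC-rich genes. Of 16990 genes, 1881 were lower in r1-r4 by the rule above, which is 11.1% of all genes, and 71 were higher, which is 0.418%. In the tenth of genes with the highest exon GC content the median difference between the subgroups was -1.21, and 786 of the 1360 genes there were lower in r1-r4. In the tenth with the lowest GC content the median difference was 0.40, and 2 genes were lower. Across genes, which are not independent replicates, the difference correlated with GC content with Pearson's r of -0.73 over 16952 genes with a GC value. TMEM238 shows the size of this at a single gene. It stood at 1.66, 1.34, 1.79 and -0.63 log2 CPM in r1, r2, r3 and r4, and at 5.02, 5.79 and 5.28 in r5, r6 and r7, a difference of -4.33. The control tumors ranged from 3.99 to 6.12, so each of r1-r4 lay below every control tumor and each of r5-r7 lay within their range.

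Each library's GC trend was then fitted as a smooth curve over genes and subtracted. The curve was set against the mean of the 21 libraries, so the corrected values of a gene keep its overall level. After correction the median difference in the tenth of highest GC content was 0.04, the correlation of the difference with GC content was 0.0042, and the SD of the difference over genes went from 0.72 to 0.47. TMEM238 then stood at 3.23, 2.50, 4.09 and 1.70 in r1-r4 and at 4.31, 4.27 and 4.62 in r5-r7. The subgroups still did not overlap, but the difference was -1.53, a 2.88-fold lower level in r1-r4 in place of a 20.05-fold one.

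**Figure D2:**
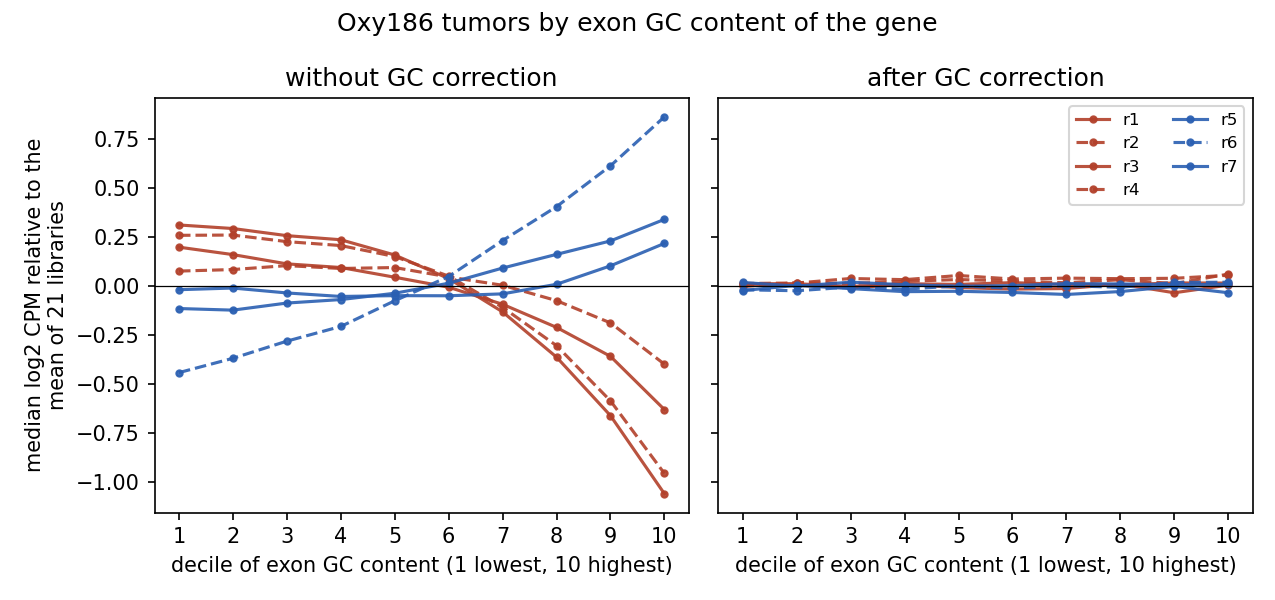
Median log2 CPM of each Oxy186 tumor, relative to the mean of the 21 libraries, in 10 classes of genes ordered by exon GC content, without correction on the left and after it on the right. In the highest class r1-r4 (red) lie between -1.06 and -0.40 and r5-r7 (blue) between 0.22 and 0.86, and after correction all 7 lines stay near 0.

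After correction 390 of 16952 genes were lower in r1-r4, which is 2.30% of all genes, and 127 were higher, which is 0.749%. Of the genes counted as lower without correction, 334 were also counted as lower after it, which is 17.8% of the uncorrected list and 85.6% of the corrected list. Of the genes counted as higher, 27 were on both lists, which is 38.03% of the uncorrected and 21.3% of the corrected list. Non-overlap of the 4 and 3 values alone, with no condition on size, held for 1423 genes (8.39%) with lower values and 1452 genes (8.57%) with higher values in r1-r4, so the directions were about even there. When the correction kept each library's mean level, 569 genes were lower and 73 higher, so 88.6% of the counted genes were lower in r1-r4 in place of 75.4%. That setting moved the median difference of all genes to -0.13, from 0.0056. With no filter on low counts 808 genes were lower and 844 higher after correction, where 182 were higher without it. The trend was also subtracted from genes with almost no counts, whose uncorrected values can hardly differ between libraries. These unfiltered counts therefore cannot tell whether lower genes were in excess. With at least 10 counts in every library 209 were lower and 79 higher.

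The tumors of the 2 subgroups also became nearly as alike as tumors within a subgroup. The distance between 2 tumors was taken as the median absolute difference in log2 CPM over 13594 genes with a mean of at least 1. Without correction this distance had a median of 0.47 over the 12 pairs that join the subgroups, 0.30 over the 6 pairs within r1-r4 and 0.31 over the 3 pairs within r5-r7. After correction the medians were 0.31, 0.27 and 0.27. The closest pair of all was r6 and r7, at 0.18, and the farthest was r3 and r5, at 0.40. Control pairs had a median of 0.24 after correction and Oxy210 pairs 0.20, so the Oxy186 tumors remained farther apart from each other than the tumors of either other group by this measure. On the first component of the corrected values, with 19.3% of the variance, the subgroups overlapped. The scores were 4.55, -41.3, -47.5 and -11.6 in r1-r4 and 36.8, 0.37 and -8.33 in r5-r7. On the second, with 13.6%, they did not. There the scores were 39.9, 16.1, 11.5 and 33.1 in r1-r4 and 2.702, -30.4 and -29.1 in r5-r7, and the control tumors ranged from -32.9 to 5.97 and the Oxy210 tumors from -2.10 to 23.5.

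Among the genes that remained lower in r1-r4 and averaged at least 1 log2 CPM over the Oxy186 tumors, SRXN1, FTH1 and RAB5IF had the largest differences. SRXN1, sulfiredoxin, which restores overoxidized peroxiredoxins (ENSG00000271303, chromosome 20, 646615 to 653200), stood at -1.32, 0.20, -1.15 and -0.14 corrected log2 CPM in r1-r4 and at 2.90, 3.94 and 4.11 in r5-r7. That is a difference of -4.26, or 19.1-fold, and each of r1-r4 lay below the control range of 1.90 to 3.23. FTH1 (ENSG00000167996, chromosome 11, 61959718 to 61967634) stood at 5.53, 5.73, 5.24 and 4.67 in r1-r4 and at 8.39, 9.15 and 8.75 in r5-r7, a difference of -3.47. The control tumors ranged from 6.70 to 9.01, so r1-r4 again lay below all of them. RAB5IF, which encodes a small membrane protein (ENSG00000101084, chromosome 20, 36605779 to 36612557), stood at 2.47, 2.86, 2.24 and 1.07 in r1-r4 and at 5.20, 5.39 and 5.78 in r5-r7, against 4.18 to 5.68 in control tumors. The differences of these 3 genes were nearly the same without correction, at -4.44, -3.51 and -3.38, since their exon GC content was between 49.5% and 51.7%.

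These genes share exon sequence with neighbours, and whether counting used strand is not given in the sources used here, so their levels are uncertain. In GENCODE 44, 90.7% of the exon bases of SRXN1 are also annotated to another gene on the same strand, and 41.4% of those of RAB5IF. For FTH1, 63.2% lie opposite an exon of another gene, and 18.9% of its 50-base words recur elsewhere in exons. The other 7 genes with the largest lower values were AP000344.2 (-2.95), AL450405.1 (-2.82), PCBP1 (-2.70), RN7SL1 (-2.65), AL135905.2 (-2.60), TXNDC12 (-2.56) and TMEM141 (-2.54), each given as the corrected difference in log2 CPM. PCBP1 is an RNA-binding protein and iron chaperone, RN7SL1 the RNA of the signal recognition particle and TXNDC12 a thioredoxin-like protein of the endoplasmic reticulum. PCBP1 lies opposite another gene over 73.2% of its exon bases, and TXNDC12 shares 64.6% of its with another gene on the same strand. TMEM141 shares 15.7% on the same strand and is the one of the protein-coding genes among these 10 with the least sharing. It stood at 3.43, 3.87, 4.004 and 2.7002 in r1-r4 and at 6.31, 6.01 and 5.81 in r5-r7, against 4.52 to 6.18 in control tumors.

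The genes that were higher in r1-r4 after correction included histone genes, the lipid peroxide-reducing enzyme GPX4 and the retinol carrier RBP4. H4C9, a replication-dependent histone H4 gene (ENSG00000276180, chromosome 6, 27139282 to 27139678), stood at 5.05, 5.13, 5.92 and 5.44 in r1-r4 and at 3.53, 2.53 and 3.21 in r5-r7. That is a difference of 2.29, and each of r1-r4 lay above the control range of 2.88 to 4.53. GPX4 (ENSG00000167468, chromosome 19, 1103982 to 1106791) stood at 8.15, 8.36, 9.55 and 8.69 in r1-r4 and at 6.58, 6.76 and 6.87 in r5-r7, a difference of 1.95. Here r1-r4 lay above and r5-r7 below the whole control range of 6.93 to 7.66. GPX4 has an exon GC content of 67.3%, and without correction its difference was 0.25, so the count of GPX4 as separating the subgroups rests on the correction. The same holds for KCNF1, with 66.97% GC, whose difference was 0.05 without correction and 1.72 after it. With a straight line in place of the curve KCNF1 differed by 1.31.

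RBP4 (ENSG00000138207, chromosome 10, 93591687 to 93601744) was higher in r1-r4 both ways. It stood at 5.57, 5.89, 5.12 and 5.20 in r1-r4 and at 3.91, 3.98 and 3.42 in r5-r7, a difference of 1.68 after correction and 1.01 without it. All of r1-r4 lay above the control range of 2.91 to 4.67, and the highest Oxy210 tumor reached 5.43. No other annotated gene overlaps the exons of GPX4, RBP4, KCNF1 or H4C9. The remaining genes among the 10 largest were ILRUN-AS1 (2.18), RPL5P12 (1.94), H3P6 (1.82), AC009093.3 (1.72), H2AC11 (1.67) and H2BC6 (1.65), each as the corrected difference.

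**Figure D3:**
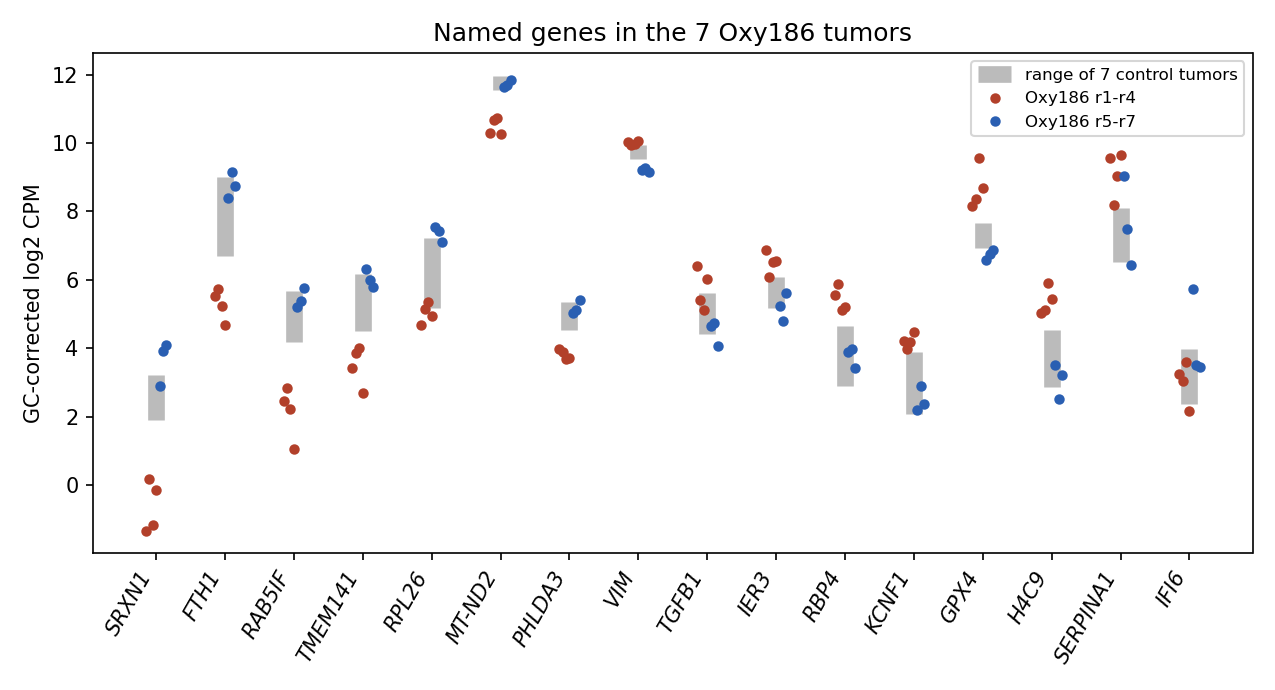
GC-corrected log2 CPM of 16 named genes in the 7 Oxy186 tumors, with 1 point per tumor, r1-r4 in red and r5-r7 in blue, and a grey bar for the range of the 7 control tumors. From SRXN1 to PHLDA3 the red points lie below the blue, from VIM to H4C9 above them, and for SERPINA1 and IFI6 the subgroups overlap.

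Compared with the control group, the corrected genes fell on either side. Of the 390 lower genes, all of r1-r4 lay outside the control range and not all of r5-r7 did for 133, all of r5-r7 and not all of r1-r4 for 44, both for 13 and neither for 200. Of the 127 higher genes the counts were 56, 5, 2 and 64. So for 200 and 64 genes, respectively, neither subgroup lay wholly outside the spread of control tumors.

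The counted genes were not spread evenly over gene structure. Among 13539 genes with a GC value and a mean of at least 1, 1.56% were lower and 0.680% higher in r1-r4 after correction. Of the genes that share no exon base with another gene on either strand, 1.06% were lower, and of those that share over 50% of them, 8.53% were. Of genes with over 50% of their 50-base words found elsewhere in exons, 6.49% were lower. Genes of the shortest 20% by exon length (up to 2826 bases) were lower in 4.17% and higher in 2.40%, and those of the longest 20% in 0.480% and 0.148%. Among the 1506 genes of the shortest 20% with no exon overlap the shares were 2.86% and 2.32%.

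**Figure D4:**
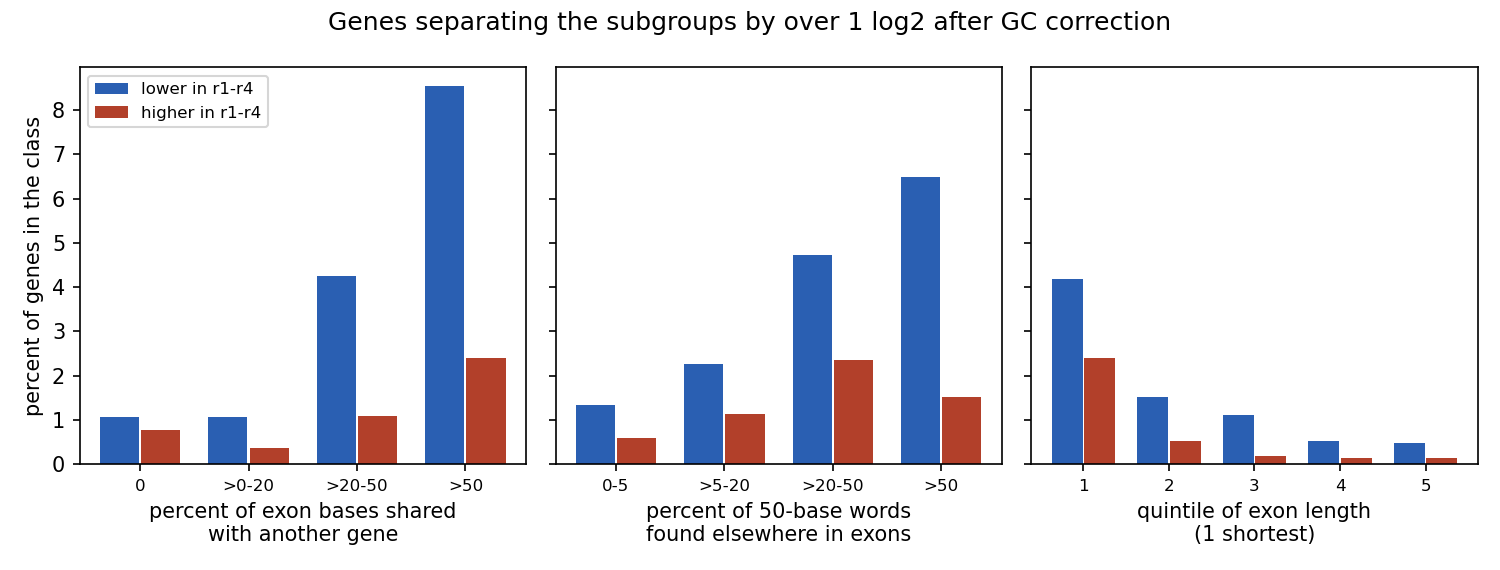
Percent of genes in each class that separated the subgroups by over 1 log2 CPM after GC correction, lower in r1-r4 in blue and higher in red, by the percent of exon bases shared with another gene, by the percent of 50-base words found elsewhere in exons, and by exon length. The share of lower genes goes from 1.06% with no overlap to 8.53% with over 50% overlap and from 4.17% in the shortest to 0.480% in the longest 20%.

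Processed pseudogenes, which are copies of messenger RNAs inserted back in the genome, were counted in both directions. Of 95 averaging at least 1, 10.5% were lower and 5.26% higher, against 1.56% and 0.680% of all genes at that level. RPL5P12, a copy of the ribosomal protein gene RPL5, had the largest such difference upward. It aligned with the RPL5 coding sequence over 848 bases with 93.2% identity. A stretch of 120 bases of RPL5P12 (chr4:98025584-98025703, plus strand, GRCh38) was picked for having the most differences within the longest ungapped part of the alignment. It is shown with the bases 200 to 319 of the RPL5 coding sequence (RPL5 on chromosome 1, 92832013 to 92841924, plus strand). The differing bases, in capitals, are the 13 positions that tell reads of one from the other there. Other stretches of this length in that part hold no more.
RPL5P12: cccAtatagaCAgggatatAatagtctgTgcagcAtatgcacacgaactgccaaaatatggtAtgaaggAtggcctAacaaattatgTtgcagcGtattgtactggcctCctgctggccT
RPL5: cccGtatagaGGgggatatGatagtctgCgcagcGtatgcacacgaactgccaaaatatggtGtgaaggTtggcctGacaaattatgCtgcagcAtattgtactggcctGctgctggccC
RPL5P12 stood at 1.99, 2.97, 2.73 and 2.46 in r1-r4 and at 0.91, 0.85 and 0.02 in r5-r7. RPL5 itself stood at 9.66, 10.4, 10.4 and 9.71 in r1-r4 and at 9.93, 10.3 and 10.0 in r5-r7, a difference of -0.05. The same was seen for RPL14P1, which differed by 1.60 while RPL14 differed by -0.0067. Of 75 such pairs of a pseudogene and the gene whose name it carries, 5 pseudogenes were higher and 9 lower in r1-r4. Of their 60 genes 0 were higher and 3 lower by the same count, beside 0.680% and 1.56% of all genes averaging at least 1. Reads of near-identical copies can be assigned to either, so these values are uncertain.

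The messenger RNAs encoded by the mitochondrial genome, which specify subunits of the respiratory chain and ATP synthase, were lower in r1-r4. The median difference of the 13 was -0.62 without correction and -0.82 after it, where the median over all genes was 0.0056. After correction 12 of 13 had a lower mean in r1-r4, 9 did not overlap between the subgroups, and 4 passed the count of over 1, where 8.39% of all genes were lower without overlap and 2.30% were counted. These were MT-ND3 (-1.32), MT-ND2 (-1.23), MT-ND6 (-1.20) and MT-ATP6 (-1.01). MT-ND2, a subunit of complex I, stood at 10.3, 10.7, 10.7 and 10.3 in r1-r4 and at 11.6, 11.7 and 11.8 in r5-r7, against 11.6 to 11.96 in control tumors. For 8 of the 13, all of r1-r4 lay below the lowest control tumor. MT-CO1, a catalytic subunit of complex IV, differed by 0.14 with overlapping subgroups, so the lower level was not shared by the whole set. The list level, the median over the 13 genes relative to the 21 libraries, was -0.86 in r1, -0.52 in r2, -0.43 in r3 and -0.91 in r4. It was 0.13, 0.06 and 0.29 in r5, r6 and r7, and the control tumors ranged from -0.02 to 0.49. The share of all counts on mitochondrial genes, ribosomal RNA included, overlapped, at 6.74% to 10.3% in r1-r4 and 7.91% to 9.84% in r5-r7.

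Replication-dependent histones package newly made DNA, and their messages lack poly(A) tails, so few of them are measured well by most RNA-seq protocols. Of 64 such genes 19 passed the filter, with a median corrected difference of 0.53. Here 5 were higher in r1-r4 and none was lower by the count, against 0.749% and 2.30% of all genes. The 5 were H4C9, H2AC11, H2BC6, H4C5 (1.39) and H3C10 (1.17). Tumor r1 was the highest of the 7 for 14 of the 19 genes, with a list level of 0.92, against 0.41 in r2, 0.28 in r3 and 0.01 in r4. Tumors r5, r6 and r7 stood at -0.04, -0.57 and -0.37, and control tumors ranged from -0.48 to 0.09. So r4 lay within the control range, and r6 below it.

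The histone values did not go with those of other genes of dividing cells. The 25 genes of DNA replication had a median corrected difference of -0.05 and the 25 genes of mitosis one of 0.06, and 0 and 1 of them were counted, against 2.30% of all genes lower and 0.749% higher. The latter was NUSAP1, a spindle protein, with a difference of -1.51. NUSAP1 lies outside the rule for named genes because its mean was below 1 log2 CPM, and it shares 86.8% of its exon bases with another gene on the same strand. The mitosis list was instead uneven within each subgroup, at -0.29, 0.38, 0.44 and -0.22 in r1-r4 and -0.47, -0.01 and 0.55 in r5-r7. Tumor r5 was the lowest of the 7 for 21 of the 25 genes and r7 the highest for 15. CDC20, an activator of the anaphase-promoting complex, stood at 4.56, 5.52, 5.84 and 4.82 in r1-r4 and at 3.83, 4.85 and 5.35 in r5-r7.

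Cytosolic ribosomal protein genes also split r1-r4 into pairs. Over 77 genes the list level was -0.30 in r1 and in r4, 0.32 in r2 and 0.70 in r3. It was 0.21, 0.17 and 0.07 in r5, r6 and r7, and -0.33 to 0.56 in control tumors. Tumor r3 was the highest of the 7 for 58 of the 77 genes, and r1 or r4 was the lowest for 29 and 35. The median difference between the subgroups was -0.06. By the count 4 genes were lower in r1-r4, namely RPL26 (-2.34), RPL23A (-1.24), RPL17 (-1.16) and RPL41 (-1.02), and 2 were higher, RPL10A (1.11) and RPS15 (1.01), against 2.30% and 0.749% of all genes.

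**Figure D5:**
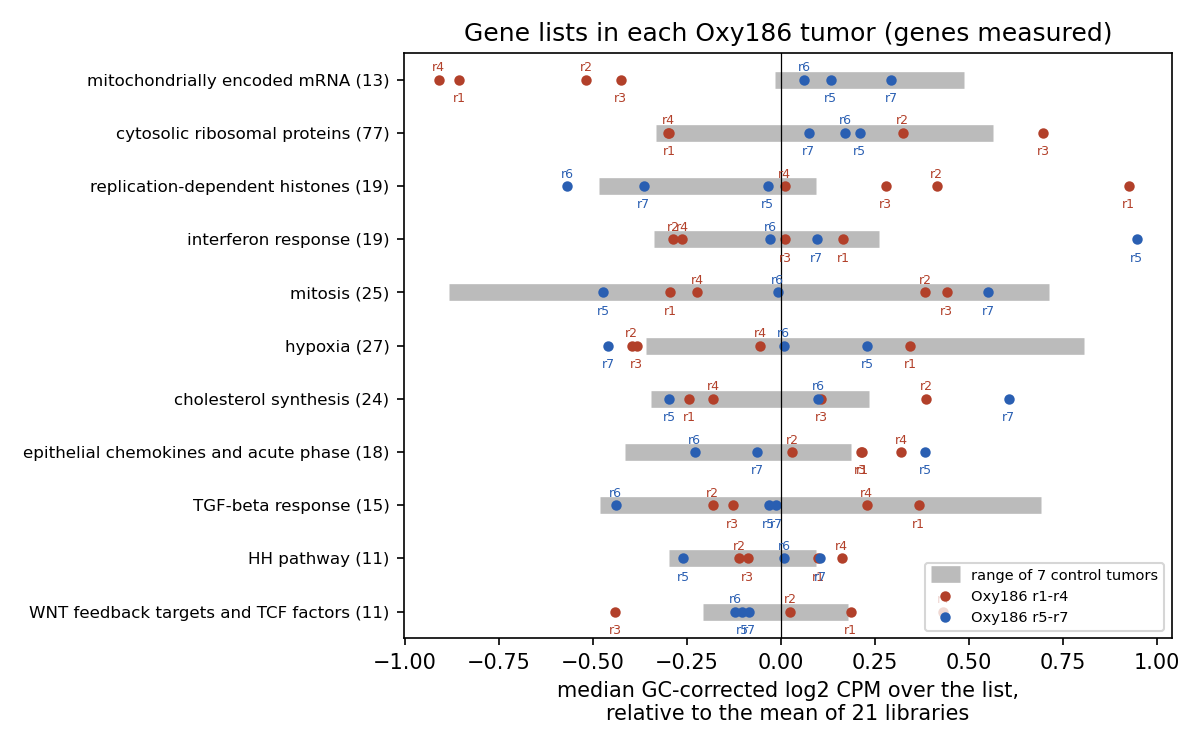
Median GC-corrected log2 CPM over each of 11 gene lists, relative to the mean of the 21 libraries, with 1 labelled point per Oxy186 tumor (r1-r4 red, r5-r7 blue), a grey bar for the range of the control tumors and the number of genes measured in brackets. The subgroups separate for the mitochondrial messages, at -0.43 or lower in r1-r4 and 0.06 or higher in r5-r7, and for the histones, while r5 alone stands at 0.95 for the interferon response.

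The interferon response marked a single tumor, r5. These 19 genes are induced by interferon and include antiviral effectors and the factors that drive them. Their list level was 0.95 in r5, against -0.29 to 0.17 in the other 6 Oxy186 tumors and -0.34 to 0.26 in control tumors. Tumor r5 was the highest of the 7 for 16 of the 19 genes and lay above every control tumor for 15. IFI27 stood at 2.18, 1.29, 2.40 and 1.56 in r1-r4 and at 4.98, 2.03 and 2.16 in r5-r7. IFI6 stood at 5.74 in r5 and at 2.17 to 3.59 in the other 6. The median difference between the subgroups was -0.56 after correction, where the subgroups overlapped for each of the 19 genes. Without correction the median was -0.55 and 5 genes were counted as lower in r1-r4, where 11.1% of all genes were. Those 5 included IFI6 (-1.76) and IFI27 (-1.53). The highest Oxy210 tumor reached a list level of 1.08, so a tumor of this kind was found under the other compound too.

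Hypoxia and immediate early genes also followed tumors rather than subgroups. The 27 hypoxia genes stood at 0.34, -0.40, -0.38 and -0.06 in r1-r4 and at 0.23, 0.01 and -0.46 in r5-r7, with a median difference of 0.00058 between the subgroups. Tumor r1 was the highest for 12 of them and r7 the lowest for 12. The 1 hypoxia gene counted was ALDOA, a glycolytic aldolase, lower in r1-r4 with a difference of -1.45, where 2.30% of all genes were counted as lower. ALDOA shares 42.8% of its exon bases with another gene on the same strand and 13.6% with one on the opposite strand. Immediate early genes, which respond to growth factors and to stress within minutes, stood at 0.60 in r1 and at -0.31 to 0.04 in the other 6 tumors. IER3, a survival-related member of the list, separated the subgroups. It stood at 6.86, 6.08, 6.54 and 6.56 in r1-r4 and at 5.23, 4.80 and 5.62 in r5-r7, a difference of 1.30 (0.55 without correction), against 5.19 to 6.09 in control tumors.

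Few of the mesenchymal and TGF-β genes separated the subgroups. VIM encodes vimentin, the intermediate filament of mesenchymal cells, which A549 cells also express. It stood at 10.0, 9.93, 9.96 and 10.1 in r1-r4 and at 9.21, 9.26 and 9.14 in r5-r7, against 9.53 to 9.95 in control tumors. The difference of 0.79 is a 1.73-fold higher level in r1-r4, below the size needed for the count, and all of r5-r7 lay below the lowest control tumor while r2 lay within the control range. It was 0.94 with a straight line on GC and 0.66 when each library's mean was kept. FN1, fibronectin, differed by 0.78 without overlap, at 9.84 to 11.04 in r1-r4 and 9.50 to 9.64 in r5-r7. The EMT list of 15 genes had a median difference of 0.14, 2 genes were higher in r1-r4 without overlap and none was counted. In the TGF-β response list of 15 genes, with a median of 0.29, 2 genes were higher without overlap and 1, the ligand TGFB1, was counted. Over all genes 8.57% were higher without overlap and 0.749% were counted. TGFB1 stood at 6.40, 5.42, 5.14 and 6.03 in r1-r4 and at 4.66, 4.73 and 4.08 in r5-r7, a difference of 1.25 after correction and 0.15 without it, at 62.1% GC.

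Of the 18 p53 target genes 2 were lower in r1-r4 and none higher after correction, against 2.30% and 0.749% of all genes. BBC3, a pro-apoptotic BH3-only protein, stood at 2.41, 2.30, 1.63 and 2.14 in r1-r4 and at 3.75, 4.05 and 4.20 in r5-r7, against 3.51 to 4.01 in control tumors. PHLDA3, an inhibitor of AKT, stood at 3.99, 3.90, 3.71 and 3.71 in r1-r4 and at 5.02, 5.13 and 5.43 in r5-r7, against 4.54 to 5.34. In both, r1-r4 lay below all control tumors. The median of the list was -0.10, and its level overlapped between the subgroups, from -0.18 to 0.01 in r1-r4 and from -0.09 to 0.13 in r5-r7. Among 22 NRF2 targets, which serve antioxidant defence, SRXN1 and FTH1 were the 2 counted as lower, against 2.30% of all genes. Another 2, GCLC (0.37) and ME1 (0.56), were higher in r1-r4 without overlap, against 8.57% of all genes. The median of the list was 0.12.

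SERPINA1, which encodes alpha-1 antitrypsin, had the widest spread among the acute phase and chemokine genes and put r5 beside r1-r4. It stood at 9.58, 8.18, 9.04 and 9.65 in r1-r4 and at 9.04, 7.48 and 6.44 in r5-r7, so the subgroups overlapped at a difference of 1.46. Tumors r1 to r5 lay above the control range of 6.53 to 8.10 and r7 below it. CXCL17, a mucosal chemokine, had a like order, at 2.23, 1.42, 2.15 and 2.34 in r1-r4 and at 2.55, 1.22 and -0.43 in r5-r7. None of the 18 genes of that list was counted.

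Hedgehog and WNT are the developmental pathways the study set out to examine under these compounds. Hedgehog ligands act through the receptor PTCH1 and the transducer SMO on the GLI transcription factors, and WNT ligands act through FZD and LRP receptors on β-catenin and TCF factors. Of 11 Hedgehog genes measured, none separated the subgroups by the count, and the median difference was -0.38 without correction and 0.13 after it. Without correction SMO (-0.86) and GLI2 (-0.73) were lower in r1-r4 without overlap, below the size needed for the count. The share of all genes lower without overlap before correction is not given here. By exon GC content, the tenth of genes holding SMO had a median difference of -1.21 and that holding GLI2 one of -0.75. After correction the subgroups overlapped for both, at 0.12 and 0.22. Corrected SMO stood at 5.29, 5.28, 4.88 and 4.99 in r1-r4 and at 5.13, 4.89 and 4.95 in r5-r7. GLI1 stood at 2.32, 2.29, 3.35 and 2.54 in r1-r4 and at 2.51, 2.36 and 2.96 in r5-r7, a difference of 0.01 in place of -0.75 without correction. HHIP, a Hedgehog-binding inhibitor, had the largest difference of the list, -0.77, with overlapping subgroups.

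Among the 11 WNT feedback targets and TCF factors the median difference was -0.06 without correction and 0.21 after it, and none was counted after correction. TCF7 was the 1 gene without overlap, where 8.57% of all genes were higher in r1-r4 without overlap. It stood at 4.19, 4.30, 4.23 and 5.02 in r1-r4 and at 3.39, 3.60 and 3.88 in r5-r7. The 13 WNT receptors had a median of 0.05 after correction. LRP5 stood at 7.11, 6.68, 6.20 and 7.09 in r1-r4 and at 6.14, 6.53 and 6.16 in r5-r7, so r3 lay among r5-r7. MYC, a growth-promoting transcription factor, stood at 5.99, 6.34, 6.19 and 5.90 in r1-r4 and at 5.06, 5.90 and 6.49 in r5-r7, and CCND1, cyclin D1, differed by 0.32. In both genes r5 was the lowest of the 7 tumors and the subgroups overlapped.

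The genes measured by RT-qPCR were chosen on these samples, so their direction is not independent evidence. All 10 were counted as lower in r1-r4 without correction, against 11.1% of all genes, with a median difference of -2.01. After correction the median was -0.49 and 1 was counted as lower, against 2.30% of all genes. That gene, NBL1, a secreted BMP antagonist, stood at 2.51, 3.42, 2.56 and 2.53 in r1-r4 and at 3.91, 4.13 and 3.76 in r5-r7, against 3.70 to 4.33 in control tumors. FDXR and SLC25A22 did not overlap either, with differences of -0.71 and -0.70, and PRR7 was higher in r1-r4 without overlap, by 0.67. Over all genes 8.39% were lower and 8.57% higher without overlap. SLC25A22 and PRR7 fall outside the rule for named genes and were chosen after their values were seen.

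Sterol genes were compared because the compound is an oxysterol derivative, and oxysterols are known to act on LXR and on the SREBP control of cholesterol synthesis. Of 24 cholesterol synthesis genes 1 was counted, against 2.30% of all genes lower. It was CYP51A1, with a corrected difference of -3.77. CYP51A1 had a mean below 1 log2 CPM and shares 68.2% of its exon bases with another gene on the same strand, and it lies outside the rule for named genes. The median of the list was -0.08, and its level was highest in r7 (0.60) and r2 (0.39) and lowest in r5 (-0.30). LXR targets had a median of 0.17 and none was counted. The list of ATF4 and ER stress genes likewise had none counted, with a median of 0.03.

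The remaining values bear on what the libraries contain. Total counts on human genes were 14769185 to 15776682 in r1-r4 and 14008787 to 15467689 in r5-r7, and every pair of Oxy186 libraries differed by more than sampling noise, so each was kept as 1 sample. The summed level of 10 A549 epithelial markers, all detected, was 11431 to 16256 CPM in r1-r4, 12959 to 20649 in r5-r7 and 12055 to 17836 in the control group. Human fibroblast markers, of which 5 of 8 passed the filter, summed to 106 to 235, 105 to 168 and 117 to 237 CPM, and leukocyte markers, with 4 of 8, to 12.4 to 25.95, 13.3 to 20.9 and 13.3 to 33.2. Endothelial markers, with 2 of 7 passing and VWF at 0, summed to 2.63 to 3.45, 1.92 to 4.35 and 1.90 to 6.90. Skin, fat and muscle markers, with 3 of 9 passing and KRT1, ADIPOQ, MYH1 and CKM at 0, summed to 52.8 to 75.4, 43.1 to 86.4 and 47.6 to 89.0. In each marker list the ranges of the subgroups overlapped. All tumors were grown from the same human cell line, so these sums do not give shares of human cell types. Where the reads on the markers other than the epithelial ones come from was not tested.

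The 7 control and 7 Oxy210 tumors, which did not enter the subgroups, were used to test which genes follow a library's GC slope. The GC slope is computed from the same counts, so this is a test within these libraries. In edgeR's quasi-likelihood test with the treatment group as a term, 3010 of 16396 genes (18.4%) rose and 2961 (18.1%) fell with the slope with p adjusted by Benjamini-Hochberg and a threshold of 0.05. With each library's GC trend as an offset, 90 of 16365 genes (0.550%) rose and 31 (0.189%) fell. Of the 390 genes that were lower in r1-r4 after correction, 362 were tested here, and 18 (4.97%) rose and 0 fell. Of the 127 higher genes 123 were tested, and 0 rose and 1 (0.813%) fell. The median change per unit of slope was 0.53 for the lower genes, -0.16 for the higher genes and -0.03 for all genes on the log2 scale.

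FTH1 was among the genes that rose, by 4.17 ± 0.61 (SE) on the log2 scale per unit of slope (edgeR adjusted p = 0.00437). RAB5IF rose by 2.71 ± 0.60 (edgeR adjusted p = 0.0460). SRXN1, at 2.67 ± 0.70, and H4C9, at -2.29 ± 0.52, did not pass (edgeR adjusted p = 0.0958 and 0.0515). VIM, at -0.84 ± 0.50, did not pass either (edgeR adjusted p = 0.456), nor did RBP4, at 0.13 ± 0.93 (edgeR adjusted p = 0.963). Without the 2 libraries with the most extreme slopes, Oxy210 r5 and control r1, no gene passed with the offsets, and 1552 had an unadjusted p under 0.05, against 2426 with all 14 libraries. By limma voom the count without these 2 libraries was also 0. What share of the difference between r1-r4 and r5-r7 goes with these libraries' preparation was not tested.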

How the data were processed

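RNA-seq was analysed for 21 tumors. Per the labels and the study's methods, the authors trimmed reads with Trimmomatic 0.39, aligned them with STAR 2.7.6a to a combined human GRCh38.p13 (GENCODE 37) and mouse GRCm39 reference, and counted uniquely mapped human reads per gene with featureCounts (Subread 2.0.1). They deposited raw counts for 60651 genes in all tumors, and log2 CPM values made with filterByExpr and TMM normalization (edgeR 3.31.4) for control tumors and r1-r4. The strand setting was not given in the sources used here. The deposited log2 CPM differed from values recomputed here by at most 0.0028 over 16852 genes and were used for that check only.

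Here filterByExpr over the 3 treatment groups, TMM normalization and log2 CPM with a prior count of 2 were computed with R 4.3.3 and edgeR 4.0.16, with limma 3.58.1 and DESeq2 1.42.0 as alternatives. Exon GC content, exon overlap and positions came from GENCODE 44 on GRCh38, which is not the release used for counting, with a GC value for 99.8% of filtered genes. Each library's GC trend was a 4-df spline fitted to genes averaging 1 log2 CPM or more. The counting rule and the edgeR quasi-likelihood test were tested on simulated data. Named genes were the 10 largest differences per direction after correction and the 5 largest without it, among genes without overlap and averaging 1 or more over the Oxy186 tumors, the 2 largest per list, and SMO, GLI1, GLI2, MYC, CCND1, TMEM238 and CXCL17. Other genes counted in a list, and MT-CO1, GCLC, ME1, RPL5 and RPL14, were named after their values were seen. The members and lists were chosen with earlier results of these data known. Each tumor was taken as 1 sample, nothing in the labels says how tumors relate to litters or cages, and the p-values measure only the spread between these samples.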

Additional observations from a re-analysis of the deposited data

Results flagged for a closer look

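Each named gene was looked at within the 7 tumors of each group for a tumor standing far from the others, by the gap to its nearest neighbour as a share of the group's range (Dixon's test). Of 228 such groups 12 were picked out, where chance alone gives about 11.4. All values are GC-corrected log2 CPM.

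In the Oxy186 group, tumor r5 stood apart for IFI6 (5.74, the others 2.17 to 3.59), IFI27 (4.98, the others 1.29 to 2.40) and MYC (5.06, the others 5.90 to 6.49), and tumor r7 for TNFRSF19 (4.13, the others 3.16 to 3.56). In the Oxy210 group, tumor r4 stood apart for the same interferon-induced genes, IFI6 (5.34, the others 2.47 to 3.24) and IFI27 (4.40, the others 1.15 to 2.41). Also in that group tumor r2 stood apart for KIF20A (5.65, the others 4.86 to 5.19) and tumor r6 for LRP5 (6.95, the others 6.43 to 6.64) and IER3 (6.37, the others 5.22 to 5.70). In the control group, tumor r7 stood apart for PCBP1 (1.94, the others 2.74 to 3.33) and TGFB1 (4.41, the others 5.11 to 5.61), and tumor r6 for TCF7 (4.65, the others 3.55 to 3.92).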

How the results depend on the processing

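The difference in GC slope between the subgroups, -0.62, stayed between -0.70 and -0.50 under every alternative run, leaving out each Oxy186 tumor included. For the named genes 1158 of the alternative values moved by less than the spread between tumors, 4 moved by more (TMEM238 to -2.51, VIM to 0.94 and KCNF1 to 1.31 with a straight line on GC, and VIM to 0.66 when library means were kept) and 0 changed sign.

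The counts depended on the filter. With no filter on low counts 182 genes were higher without correction, and 808 were lower and 844 higher after it. With at least 10 counts in every library these were 33, 209 and 79. When each library's mean was kept 73 genes were higher after correction. Among the 8119 genes whose exons overlap no other gene, an alternative chosen after the data were seen, 151 were lower (1.86%) and 67 higher (0.825%). Leaving out 1 tumor asks fewer values not to overlap and gave 1704 to 2388 lower and 99 to 289 higher genes without correction, and 440 to 535 lower and 145 to 267 higher genes after it. Without correction the higher genes were 112 without r1, 156 without r2 and 289 without r5, and after it 203 without r2 and 267 without r5.

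In the test over control and Oxy210 tumors with GC offsets, DESeq2 gave 318 rising and 135 falling genes, and RLE normalization 19 falling. Without the 2 libraries farthest from the median slope, 1793 genes rose and 1222 fell without offsets, and 0 rose and 0 fell with them, where fewer samples were fitted. Replicate numbers do not pair the tumors, since the deviations of control and Oxy210 tumors of the same number correlated from -0.43 to 0.34. With a replicate block, 0 genes rose and 0 fell in edgeR's test with or without offsets (2891 without and 1078 with offsets at an unadjusted p under 0.05), and limma voom also gave 0. The block left 21.1% of the variance of the GC slope within groups. Depth was alike in all groups and limits genes near 1 CPM or below, whose log2 values depend on the prior count.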
